A study of Mus musculus with 36 samples.

Results

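The p53 tumor suppressor gene Trp53, its inhibitor Mdm2, the cell cycle inhibitor genes Cdkn2a and Cdkn2b, and 6 genes that p53 is known to activate (Cdkn1a, Ccng1, Bax, Bbc3, Sesn2 and Eda2r) were followed in mammary tumors of 2 mouse models. The 10 genes were chosen by name for their place in the p53 and Cdkn2a pathways, with earlier results of these data known, as were the gene lists below. All 10 were found among the 21650 genes of the expression table. RNA-seq was done on 36 libraries in 12 groups of 3. The 4T1 cells, a BALB/c mammary tumor line that constitutively expressed firefly luciferase, were inoculated through the teat canal of the third mammary gland of BALB/c females. The Py230 cells, a line derived from a spontaneous tumor of an MMTV-PyMT transgenic C57BL/6 mouse and carrying no luciferase, were inoculated in the same way in C57BL/6 females, and in a larger number. Control glands of each strain received Matrigel without cells. All mice were lactating and their pups had just been weaned, and the tumors or glands were taken 1, 3 or 6 weeks post-inoculation (w p.i.). Each model is a single cell line in its own strain, so cell line, luciferase, cell number and host strain cannot be told apart in the tumors, and the Matrigel glands give the strain difference in tissue without tumor cells.

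The p53 protein is a transcription factor that is activated by DNA damage, oncogenes and other stress. Mdm2, itself a p53 target, marks p53 for degradation, and the Arf protein made from Cdkn2a blocks Mdm2. The Ink4a protein, made from another reading frame of Cdkn2a, and the Ink4b protein of Cdkn2b inhibit the cyclin D dependent kinases and thus act through the retinoblastoma protein rather than through p53. Mammary tumors driven by the polyoma middle T oncogene, as in MMTV-PyMT mice, usually arise without a mutation of Trp53, whereas 4T1 is widely described as a line that lacks functional p53. Loss of the protein need not change the level of its mRNA, so the scores below describe transcripts and not p53 function.

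The deposited values are scores. Every library was centred on 0 with unit spread across its genes, so a score tells how far a gene lay above or below the average gene of its library. Across 5506 genes for which the authors give a mean normalized count from 10 up to 100, 1 score unit spanned 2.34 log2 units of that count. Across the 9492 genes from 100 up to 1000 it spanned 2.45 log2 units, and across the 4075 genes from 1000 upward 2.87. Over all 13567 genes from 100 upward it spanned 2.78, so the slope depends on the range of counts taken. The ranges were cut on the count itself, which alone can change the slope. The slope compares different genes, and whether it holds for a change within 1 gene was not tested. The read depth is unknown because no counts of single libraries were used. The precision of each difference rests on the spread between libraries within groups, estimated for each gene over all 12 groups. A gene thus had the same SE in each comparison of a pair of groups, whatever the spread of the libraries compared. A gene was called where the adjusted p of limma over all genes was under 0.05. Correlations between libraries of the same group were at least 0.947 over all genes. Epcam, Krt8 and Krt18, which are 3 of the 12 epithelial genes listed, had mean scores of at least 1.42 in all 12 groups. The mean of all 12 listed genes differed more at 6 w p.i. It was 1.07 in 4T1 tumors, with libraries from 0.68 to 1.32, and 1.45 in Py230 tumors, with libraries from 1.44 to 1.48. The adipocyte genes had mean scores of 1.90 to 2.14 in the 6 gland groups, of 0.45 in Py230 tumors and -0.14 in 4T1 tumors of 6 w p.i. At 1 w p.i. they had 1.96 in Py230 and 1.48 in 4T1 tumors. At 3 w p.i. they had 1.43 in Py230 tumors (libraries from 0.47 to 2.04) and 1.71 in 4T1 tumors (0.83 to 2.21). In bulk tissue of this kind, fewer cells of a type and less RNA per cell cannot be told apart.

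Promoters of the members were read from RefSeq (GRCm38.p6, the mm10 assembly) as the 250 bases before to 50 bases after each start, and 14 promoters belonged to the 10 genes. They were searched on both strands for the p53 decamer, which is a single unit of a p53 response element, and for the E2F core TTCCCGC, which can be bound by the E2F factors under control of the retinoblastoma protein. Of all 32851 promoters in the table, 8.36% held the decamer and 4.60% held the E2F core, and the matches of both motifs did not overlap in the member promoters. The decamer was found in 5 of the 14 member promoters, those of Trp53, Mdm2, Ccng1, Bax and the upstream start of Cdkn1a, and the E2F core in 2, that of the upstream start of Cdkn2a and that of Bbc3. A match describes letters only. The sequences of the Cdkn2a and Cdkn2b starts are shown because these genes gave the widest differences between the models, and that of Cdkn1a because it alone held 2 decamers. The strand is that of the gene, capitals mark the motif, and the Arf transcript begins at the upstream start of Cdkn2a, the Ink4a transcript at the downstream start.
Cdkn2a upstream start, chr4:89294570-89294869, minus strand: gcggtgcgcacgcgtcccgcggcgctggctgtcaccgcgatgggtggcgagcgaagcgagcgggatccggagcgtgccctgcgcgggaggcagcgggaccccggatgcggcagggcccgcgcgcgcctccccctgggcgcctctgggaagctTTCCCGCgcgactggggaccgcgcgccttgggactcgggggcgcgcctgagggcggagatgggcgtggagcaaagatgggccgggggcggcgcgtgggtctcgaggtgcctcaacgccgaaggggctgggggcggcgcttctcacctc
Cdkn2a downstream start, chr4:89282143-89282442, minus strand: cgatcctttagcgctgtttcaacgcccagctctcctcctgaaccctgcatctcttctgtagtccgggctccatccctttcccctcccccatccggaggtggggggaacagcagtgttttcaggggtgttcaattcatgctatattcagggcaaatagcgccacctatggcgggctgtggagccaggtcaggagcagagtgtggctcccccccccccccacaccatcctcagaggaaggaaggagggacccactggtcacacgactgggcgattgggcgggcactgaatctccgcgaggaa
Cdkn2b, chr4:89310983-89311282, minus strand: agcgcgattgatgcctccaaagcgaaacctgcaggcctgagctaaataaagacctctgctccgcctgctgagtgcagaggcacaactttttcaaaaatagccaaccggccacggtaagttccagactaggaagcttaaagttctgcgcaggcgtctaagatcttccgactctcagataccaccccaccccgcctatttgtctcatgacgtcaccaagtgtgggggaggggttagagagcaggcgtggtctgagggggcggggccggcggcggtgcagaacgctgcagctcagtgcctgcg
Cdkn1a upstream start, chr17:29090729-29091028, plus strand: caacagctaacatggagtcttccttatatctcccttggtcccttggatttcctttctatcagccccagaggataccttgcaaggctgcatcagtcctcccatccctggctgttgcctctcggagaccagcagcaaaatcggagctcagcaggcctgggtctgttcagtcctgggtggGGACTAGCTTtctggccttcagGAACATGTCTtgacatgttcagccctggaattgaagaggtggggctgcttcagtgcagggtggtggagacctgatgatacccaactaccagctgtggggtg
The E2F core of Cdkn2a began 98 bases before its start, and no match to either motif lay within the windows of the downstream start or of Cdkn2b. The decamers of Cdkn1a began 73 and 51 bases before the start. The second of them, GAACATGTCT, was followed directly by tgacatgttc, which differs from the decamer by its opening base. GC content was 77.0% at the upstream and 60.3% at the downstream start of Cdkn2a.

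At 1 w p.i. the models were close for these genes, and at 6 w p.i. most of them were lower in 4T1 than in Py230 tumors. Called at 1 w p.i. was 1 of the 10 genes, Bax, which was higher in 4T1 tumors, where 19.4% of all genes were called. The only gene called at 3 w p.i. was Cdkn2a, which was lower in 4T1 tumors, where 30.3% of all genes were called. By 6 w p.i. 7 genes were called, all lower in 4T1 tumors, beside 40.8% of all genes. These were, in order of size, Cdkn2a, Cdkn2b, Eda2r, Cdkn1a, Ccng1, Sesn2 and Trp53. By the conversion from score to count units across genes, whose error was not estimated, the differences read as about -3.30 log2 units for Cdkn2a, -2.05 for Cdkn2b, -1.73 for Eda2r and -0.66 for Trp53. The median difference of the 10 genes at 6 w p.i. was -0.35, and that of all genes was 0.04. As the 10 genes were chosen with earlier results of these data known, these counts and medians are descriptions only. Under a cyclic loess scaling the higher genes made up 49.0% of the called genes rather than 59.1%, with 7 members called in both cases. The share of all genes that were higher in 4T1 tumors was 24.1% and the share that were lower was 16.7%. In the same tumors the 3 scores of one model lay wholly outside those of the other for 8 of the 10 genes and for 58.2% of all genes.

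**Figure D1:**
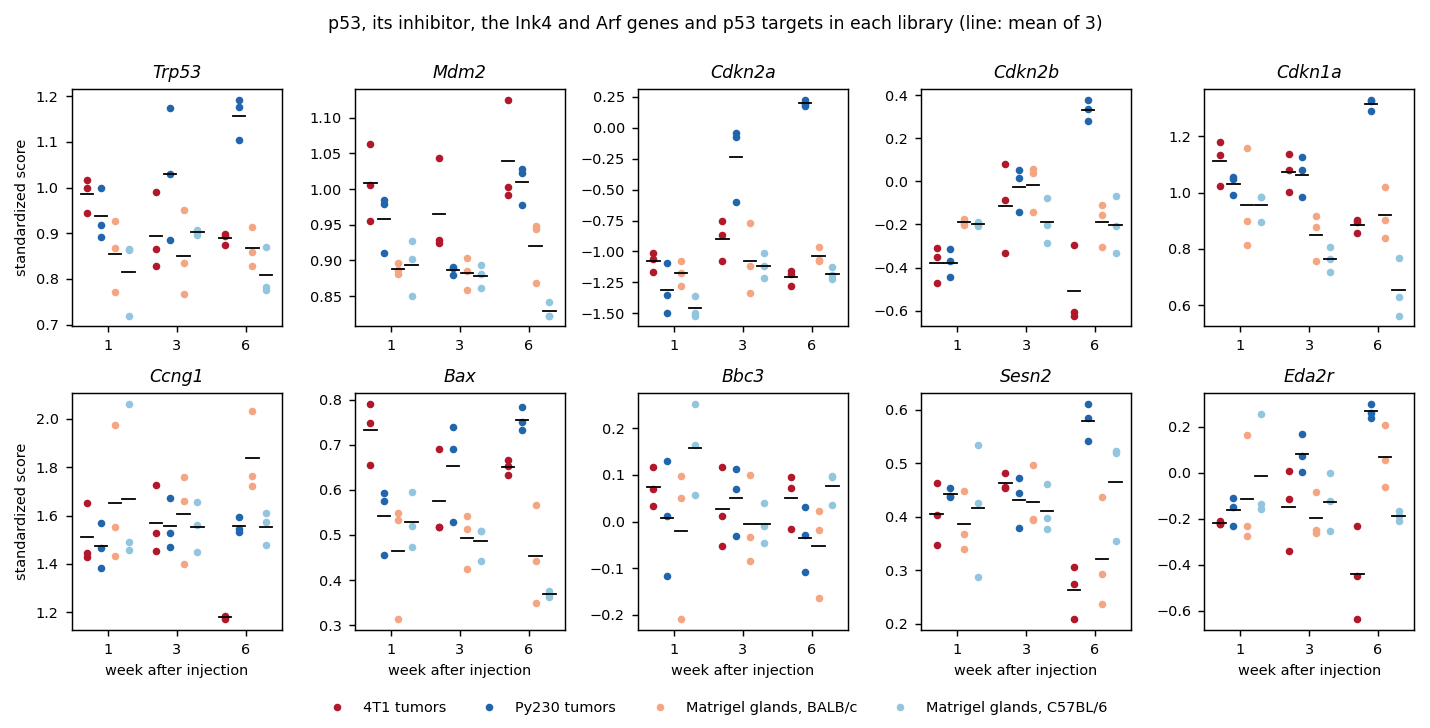
Standardized score of each of the 10 genes (y axis, score units, with its own range in each panel) in every library by week after injection (x axis), with 3 libraries per group and a line at their mean. The Py230 tumors at 6 w p.i. are the highest group for Trp53, Cdkn2a, Cdkn2b, Cdkn1a, Bax, Sesn2 and Eda2r, and the 4T1 tumors at 6 w p.i. are the lowest for Cdkn2b, Ccng1, Sesn2 and Eda2r.

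The glands that received Matrigel alone gave the strain difference. The only member called in BALB/c minus C57BL/6 glands, as a mean over the 3 time points, was Cdkn1a, with a difference of 0.12 ± 0.04 (SE, adjusted p = 0.0416), and 11% of all genes were called. The call was lost with quantile normalization, the robust line and cyclic loess, and without 11 of the 18 glands in turn. In a further comparison the gland difference of each single time point, from 3 glands per strain, was subtracted from the tumor difference of that time point. Then 0 members were called at 1 w p.i. (0.305% of all genes), 1 at 3 w p.i. (9.15%) and 6 at 6 w p.i. (25.5%). At 1 w p.i. the unadjusted p values of limma for this subtracted difference were also examined, and 2 members, Bax and Bbc3, had an unadjusted p under 0.05. The 6 genes at 6 w p.i. were Cdkn2a, Eda2r, Cdkn2b, Cdkn1a, Ccng1 and Trp53, all lower on the 4T1 side. Sesn2 had a subtracted difference of -0.17 ± 0.08 (SE, adjusted p = 0.0993).

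**Figure D2:**
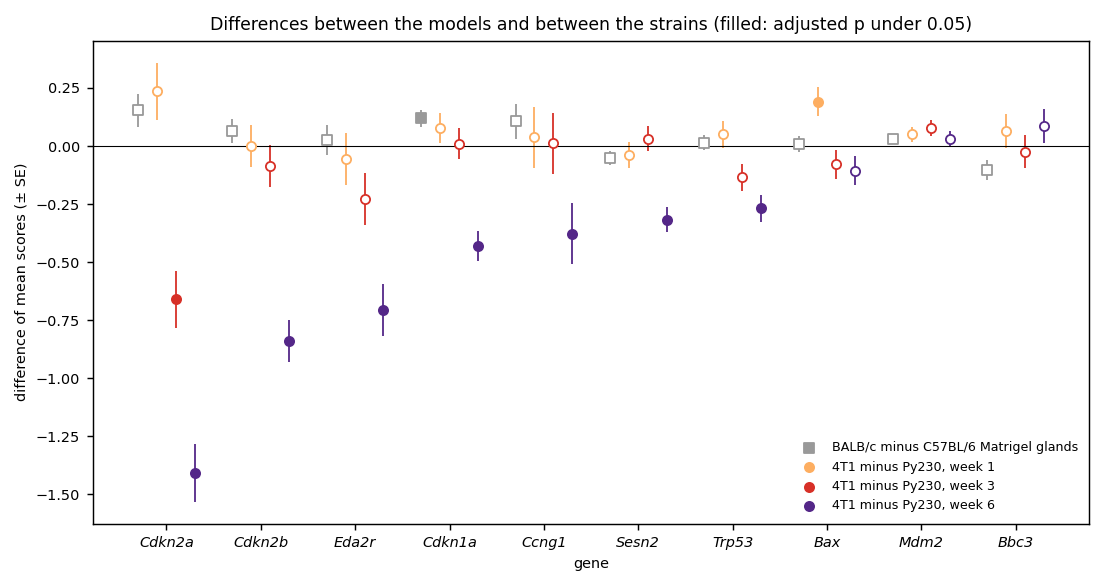
Difference of mean scores (y axis, score units, ± SE) between 4T1 and Py230 tumors at each time point and between the Matrigel glands of both strains (mean over 3 time points), for each gene (x axis). Filled symbols have an adjusted p under 0.05. The differences at 6 w p.i. run from -1.41 for Cdkn2a to 0.09 for Bbc3, and the strain differences from -0.10 to 0.15.

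Trp53 lies on chromosome 11 (chr11:69580359-69591873, plus strand, mm10) and was expressed above the average gene in all groups. The 3 Py230 tumors at 6 w p.i. had scores of 1.18, 1.19 and 1.10. The 4T1 tumors at that time had 0.89, 0.90 and 0.87, so that the models did not overlap. The difference was -0.27 ± 0.06 (SE, adjusted p = 0.000431). The order of the 12 groups ran from Py230 at 6 w p.i. (mean 1.16 ± 0.05, SD, n = 3) through Py230 at 3 w p.i. (1.03 ± 0.15) and 4T1 at 1 w p.i. (0.99 ± 0.04) to the C57BL/6 glands at 6 w p.i. (0.81 ± 0.05), and every group overlapped with the next in this order. The Py230 libraries of 3 w p.i. were spread, with 1.17, 1.03 and 0.88, and the difference of -0.13 ± 0.06 was not called (adjusted p = 0.0765). It was called without the first 4T1 library (-0.18, adjusted p = 0.0277) or without the third Py230 library (-0.21, adjusted p = 0.00568).

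In 4T1 tumors Trp53 differed from the BALB/c glands by 0.13 at 1, 0.04 at 3 and 0.02 at 6 w p.i., and none of these differences was called. In Py230 tumors it was higher than in C57BL/6 glands at 6 w p.i. by 0.35 ± 0.06 (adjusted p = 2.48e-05). The change with time in Py230 tumors from 3 to 6 w p.i., 0.13 ± 0.06, was not called (adjusted p = 0.196). The genes whose scores followed Trp53 most closely over the 36 libraries, among 13566 genes whose authors' mean normalized count reached 100, were Trp53-ps (Pearson r = 0.939), Api5 (r = 0.927) and Fbxl19 (r = 0.921). Trp53-ps is a processed pseudogene of Trp53 on chromosome 17 (chr17:54419680-54420841). Of its 1088 windows of the read length of 75 bases, 47 (4.32%) occur unaltered in Trp53 transcripts, and reads from such windows cannot be assigned to either locus by sequence. Its difference at 6 w p.i. was -0.28 ± 0.06 (adjusted p = 0.000272). The share of Trp53 and Trp53-ps in each other's scores was not tested.

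The proliferation genes moved with Trp53 over the 36 libraries (r = 0.683, and 0.641 after the group means were removed), as a description of libraries that share groups. The mean score of the 18 proliferation genes was 0.83 in Py230 and 0.87 in 4T1 tumors at 6 w p.i. Between the models at that time 0 of the 18 genes were called by limma, beside 40.8% of all genes, with 0 at an unadjusted p under 0.05 as well. Top2a had the smallest adjusted p of the 18, 0.4, at a difference of 0.23. The adipocyte genes moved the other way (r = -0.581, and -0.723 with group means removed). Their part in the Trp53 scores was not tested.

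Mdm2, the ubiquitin ligase that holds p53 in check (chr10:117688875-117710758, minus strand), did not separate the models. Its scores at 6 w p.i. were 0.99, 1.12 and 1.00 in 4T1 and 1.02, 1.03 and 0.98 in Py230 tumors, which overlap. The difference was 0.03 ± 0.03 (SE, adjusted p = 0.523). Both models stood above their own glands at that time, by 0.12 ± 0.03 in 4T1 (adjusted p = 0.00427) and by 0.18 ± 0.03 in Py230 tumors (adjusted p = 0.000131). The 4T1 libraries of 3 w p.i. were higher throughout (1.04, 0.92 and 0.93, against 0.89, 0.88 and 0.89), but the difference of 0.08 ± 0.03 was not called (adjusted p = 0.0852). Of the 12 group means only that of the C57BL/6 glands at 6 w p.i., the lowest with 0.83 ± 0.01, was free of overlap with its neighbour in the order.

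Cdkn2a (chr4:89274471-89294653, minus strand) showed the widest range of the 10 genes, and its scores sum the Ink4a and Arf transcripts, which share their downstream exons. The 3 Py230 tumors at 6 w p.i. had scores of 0.19, 0.23 and 0.18, near the middle of all genes, of which 50.2% were lower in that group. The Py230 tumors at 3 w p.i. had -0.04, -0.07 and -0.60. All other 30 libraries were lower than these 6, and the group means there ran from -0.90 in 4T1 at 3 w p.i. to -1.46 in C57BL/6 glands at 1 w p.i. The 4T1 tumors at 6 w p.i. had -1.28, -1.19 and -1.15, a level under which 16.3% of all genes lay. The order of groups was thus Py230 at 6 w p.i., Py230 at 3 w p.i., neither overlapping its neighbours, and then 10 groups in which each overlapped with the next. In the Py230 libraries of 3 w p.i., in the order given above, the adipocyte genes had mean scores of 0.47, 1.78 and 2.04. Their part in the Cdkn2a scores was not tested.

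The difference between 4T1 and Py230 tumors in Cdkn2a was 0.23 ± 0.12 at 1 w p.i. (adjusted p = 0.181), -0.66 ± 0.12 at 3 w p.i. (adjusted p = 0.000258) and -1.41 ± 0.12 at 6 w p.i. (adjusted p = 6.91e-10). In Py230 tumors the gene rose by 1.08 ± 0.12 from 1 to 3 w p.i. (adjusted p = 1.92e-06) and by a further 0.44 ± 0.12 to 6 w p.i. (adjusted p = 0.0337). In 4T1 tumors it fell by 0.31 ± 0.12 from 3 to 6 w p.i. (adjusted p = 0.038). All 3 of these tumors lay below the BALB/c glands of 6 w p.i., which had -1.08, -1.07 and -0.96, but the difference of -0.17 ± 0.12 was not called (adjusted p = 0.239). In Py230 tumors the excess over the C57BL/6 glands was 0.88 ± 0.12 at 3 w p.i. (adjusted p = 3.06e-05) and 1.38 ± 0.12 at 6 w p.i. (adjusted p = 1.03e-08). With a mean of 47.7 authors' normalized counts per kb of exon, Cdkn2a was among the less abundant members, as was Eda2r with 22.3 per kb, whereas Ccng1 had 1151 per kb.

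Cdkn2b, which encodes Ink4b (chr4:89306299-89311039, minus strand), lies beside Cdkn2a and followed it in part. Its scores at 6 w p.i. were 0.33, 0.28 and 0.38 in Py230 and -0.62, -0.61 and -0.30 in 4T1 tumors. The difference was -0.84 ± 0.09 (SE, adjusted p = 2.4e-08). Unlike Cdkn2a, it moved in both models relative to the glands at that time, being higher in Py230 tumors by 0.53 ± 0.09 (adjusted p = 3.51e-05) and lower in 4T1 tumors by 0.32 ± 0.09 (adjusted p = 0.00377). The third 4T1 library, at -0.30, lay close to the lowest BALB/c gland at -0.31, so the latter groups overlapped. In Py230 tumors Cdkn2b rose by 0.35 ± 0.09 from 1 to 3 w p.i. (adjusted p = 0.00824) and by 0.36 ± 0.09 from 3 to 6 w p.i. (adjusted p = 0.0182), and in 4T1 tumors it fell by 0.40 ± 0.09 from 3 to 6 w p.i. (adjusted p = 0.00065). Only the Py230 tumors at 6 w p.i., at the top of the order, stood clear of the next group.

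The genes around these loci did not share a common direction. Of 10 measured neighbours of Cdkn2a, Cdkn2b and Trp53, 3 were higher and 3 lower in 4T1 tumors at 6 w p.i. (40.8% of all genes called), with a median difference of -0.02. Mtap, an enzyme of the methionine salvage pathway that lies downstream of Cdkn2a (chr4:89137122-89181081, plus strand), had scores of 2.08, 2.05 and 2.01 in 4T1 and 1.35, 1.42 and 1.30 in Py230 tumors at 6 w p.i. It was thus higher in 4T1 tumors, by 0.69 ± 0.06 (adjusted p = 1.2e-10), while Cdkn2a and Cdkn2b were lower. All 18 glands had Mtap scores between 0.62 and 0.84. Mtap at 3 w p.i. had been lower in 4T1 tumors, by 0.25 ± 0.06 (adjusted p = 0.0013). Klhl9, an adaptor of a ubiquitin ligase on the same chromosome (chr4:88718292-88722465, minus strand), was lower in 4T1 tumors at 3 w p.i. and at 6 w p.i., by 0.32 and 0.31 (SE 0.04 at both, adjusted p = 1.24e-06 and 4.82e-07). Klhl9 was also lower in the BALB/c glands, by 0.09 (adjusted p = 0.0103). A gene model on the other strand shares 661 exon bases with Klhl9.

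**Figure D3:**
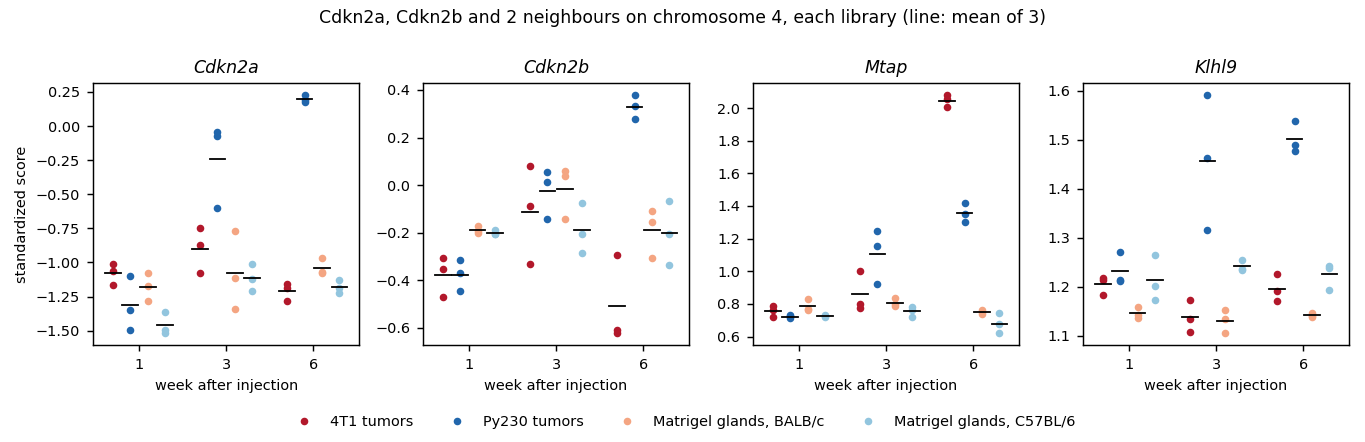
Standardized score (y axis, score units) of Cdkn2a, Cdkn2b and their neighbours Mtap and Klhl9 in every library by week after injection (x axis), with a line at the mean of 3. In the last week Cdkn2a and Cdkn2b are higher in Py230 tumors, and Mtap is higher in 4T1 tumors, at 2.01 to 2.08.

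Among factors known to regulate the Cdkn2a locus, 7 of 16 were higher and 2 lower in 4T1 tumors at 6 w p.i., beside 24.1% higher and 16.7% lower of all genes. Dmtf1, which activates Arf, was higher by 0.26 ± 0.03 (adjusted p = 6.09e-08). Tbx2, a repressor of Cdkn2a and Cdkn1a, was lower by 0.78 ± 0.10 (adjusted p = 4.01e-07), with scores of -0.10, -0.13 and 0.27 in 4T1 and 0.82, 0.98 and 0.58 in Py230 tumors. At 1 w p.i. 3 were higher and 3 lower, beside 11% higher and 8.43% lower of all genes. Among the lower were the Polycomb gene Cbx7 at -0.44 ± 0.07 (adjusted p = 0.00024) and the repressor Tbx3 at -0.41 ± 0.11 (adjusted p = 0.0143). The count at 3 w p.i. was 3 higher and 4 lower, beside 11.9% higher and 18.5% lower of all genes. Zbtb7a was higher by 0.16 ± 0.03 (adjusted p = 0.000756) and Ets1 by 0.24 ± 0.06 (adjusted p = 0.00211).

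Cdkn1a, whose product p21 inhibits the cyclin dependent kinases and is the best known p53 target (chr17:29090976-29100727, plus strand), separated the models late. The Py230 tumors at 6 w p.i. had scores of 1.29, 1.33 and 1.33, above all other groups. The 4T1 tumors at that time had 0.90, 0.86 and 0.90. The difference was -0.43 ± 0.07 (SE, adjusted p = 6.43e-06), against 0.08 ± 0.07 at 1 w p.i. (adjusted p = 0.422) and 0.01 ± 0.07 at 3 w p.i. (adjusted p = 0.934). From 3 to 6 w p.i. Cdkn1a rose by 0.25 ± 0.07 in Py230 tumors (adjusted p = 0.0211) and fell by 0.19 ± 0.07 in 4T1 tumors (adjusted p = 0.0183). The Py230 tumors exceeded the C57BL/6 glands by 0.30 ± 0.07 at 3 w p.i. (adjusted p = 0.0025) and by 0.66 ± 0.07 at 6 w p.i. (adjusted p = 3.63e-08), while 4T1 tumors differed from BALB/c glands by -0.03 ± 0.07 at 6 w p.i. (adjusted p = 0.666). An antisense transcript of unclassified type shares 273 exon bases with Cdkn1a. The libraries were stranded, and whether the counting used the strand is not given in the sources used here.

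The genes whose scores were most like those of Cdkn1a over the 36 libraries were Ube2a (r = 0.806), Cyth1 (r = 0.790) and Aen (r = 0.787), the last of which is also a p53 target. Those most like Cdkn2a were Sgsm3 (r = 0.929), Tbcd (r = 0.913) and Tmem254b (r = 0.910). After the group means were removed these r fell to between 0.427 and 0.660, whereas those of Trp53 with its 3 genes stayed between 0.883 and 0.909.

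Ccng1, a p53 target that encodes cyclin G1 and is part of a feedback on Mdm2 (chr11:40748552-40755311, minus strand), was the most abundant member. Its scores at 6 w p.i. were 1.18, 1.19 and 1.17 in 4T1 tumors, the lowest 3 values of the 36 libraries. They were 1.53, 1.55 and 1.59 in Py230 tumors and 1.76, 2.03 and 1.72 in BALB/c glands. The difference between the models was -0.38 ± 0.13 (SE, adjusted p = 0.0221), and that between 4T1 tumors and BALB/c glands was -0.66 ± 0.13 (adjusted p = 0.000115). The difference between the models no longer passed the threshold without the first 4T1 library (adjusted p = 0.05), the third 4T1 library (adjusted p = 0.0507) or the third Py230 library (adjusted p = 0.0632). Py230 tumors did not differ from their glands at 6 w p.i. in this test (0.00 ± 0.13, adjusted p = 0.993).

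The level of Ccng1 moved with skeletal muscle genes. Over the 36 libraries its r with the mean of 8 muscle genes was 0.746, and 0.765 after the group means were removed. The muscle mean ranged from -0.52 to 0.36 in 4T1 tumors at 6 w p.i., from -0.64 to 1.31 in Py230 tumors and from 2.26 to 2.71 in BALB/c glands. All 8 muscle genes were lower in 4T1 tumors than in BALB/c glands at that time, beside 21.5% of all genes. Between the models 0 of 8 were called by limma, beside 40.8% of all genes, with 0 at an unadjusted p under 0.05. The median difference of the 8 genes between the models was -0.72. The first Py230 library at 6 w p.i. had a muscle mean of -0.64, under all 3 of the 4T1 tumors, and a Ccng1 score of 1.53. The part of muscle tissue in the Ccng1 differences was not tested.

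**Figure D4:**
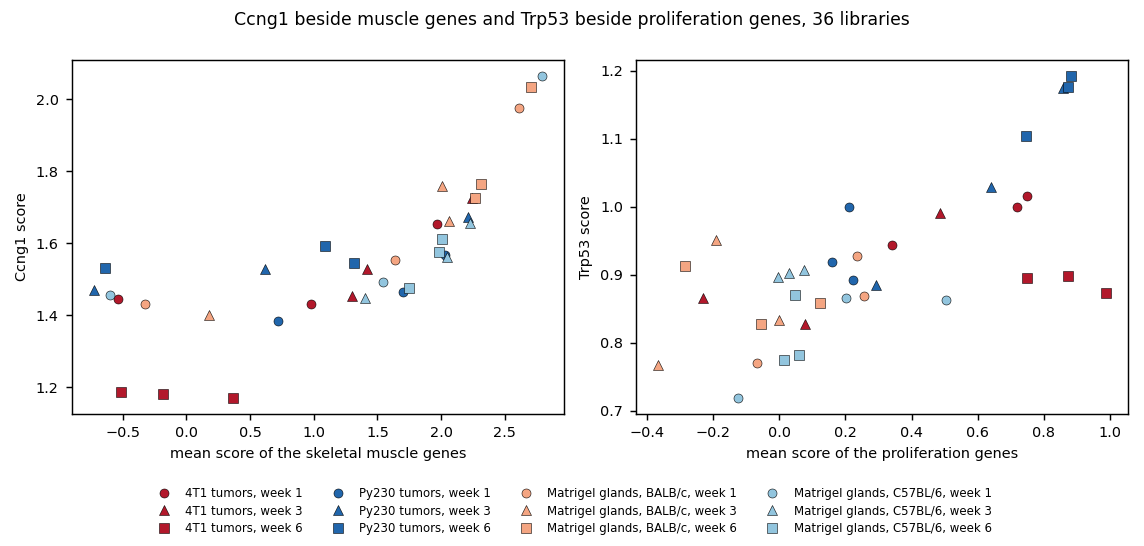
Ccng1 score against the mean score of 8 skeletal muscle genes (left) and Trp53 score against the mean score of 18 proliferation genes (right), in score units, with 1 symbol per library. Ccng1 is highest where the muscle genes are highest, and the 3 4T1 tumors of 6 w p.i. lie at 1.17 to 1.19, under libraries with similar muscle scores. They also lie under the Py230 tumors with similar proliferation scores in the Trp53 panel.

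Bax, whose product permeabilizes the mitochondrial membrane in apoptosis (chr7:45461697-45466898, minus strand), was the only member that was called at any time point as higher in 4T1 tumors. At 1 w p.i. its scores were 0.75, 0.66 and 0.79 in 4T1 and 0.46, 0.58 and 0.59 in Py230 tumors. The difference was 0.19 ± 0.06 (SE, adjusted p = 0.0309). It was not called without the first or the third 4T1 library (0.18 and 0.16) or without the first Py230 library (0.15), at adjusted p from 0.102 to 0.156. Its scores at 6 w p.i. were 0.65, 0.67 and 0.63 in 4T1 and 0.73, 0.78 and 0.75 in Py230 tumors, which do not overlap, yet the difference of -0.11 ± 0.06 was not called (adjusted p = 0.184). Both tumors stood above their glands at 6 w p.i., by 0.20 ± 0.06 in 4T1 (adjusted p = 0.00782) and by 0.39 ± 0.06 in Py230 tumors (adjusted p = 1.68e-05). Bax shares 192 exon bases with another gene model on the same strand, which is absent from the expression table. How reads there were counted is not given in the sources used here.

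Bbc3, which encodes the BH3-only protein Puma (chr7:16308393-16318205, plus strand), was called in none of the comparisons. Its group means spanned 0.21 score units, from 0.16 ± 0.10 in C57BL/6 glands at 1 w p.i. to -0.05 ± 0.10 in BALB/c glands at 6 w p.i., and every group overlapped with the next. The difference between the models at 6 w p.i. was 0.09 ± 0.07 (SE, adjusted p = 0.372). Among 20 other genes of the Bcl2 family and caspases, 5 were higher and 2 lower in 4T1 tumors at that time, when 40.8% of all genes were called. The Bax relative Bok was higher by 0.44 ± 0.06 (adjusted p = 3.69e-06). The initiator caspase Casp9 was higher in 4T1 tumors at 1 w p.i. and at 3 w p.i., by 0.20 and 0.25 (adjusted p = 0.000524 and 1.28e-05), with a strain difference of 0.07 in the glands (adjusted p = 0.0303).

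Sesn2, a stress gene whose product sestrin 2 restrains mTORC1 (chr4:132492032-132510501, minus strand), had scores of 0.31, 0.27 and 0.21 in 4T1 and 0.61, 0.59 and 0.54 in Py230 tumors at 6 w p.i. These groups stood at the opposite ends of the order of 12. The difference was -0.32 ± 0.05 (SE, adjusted p = 2.88e-05). Neither tumor was called against its own glands at that time, with -0.06 ± 0.05 in 4T1 (adjusted p = 0.352) and 0.11 ± 0.05 in Py230 tumors (adjusted p = 0.085). In 4T1 tumors the gene fell by 0.20 ± 0.05 from 3 to 6 w p.i. (adjusted p = 0.00285).

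Eda2r, a receptor of the tumor necrosis factor family that binds ectodysplasin A2 (chrX:97333840-97377216, minus strand), had the lowest level per length of the 10 genes. Its scores at 6 w p.i. were 0.30, 0.26 and 0.24 in Py230 tumors and -0.64, -0.23 and -0.45 in 4T1 tumors. The difference was -0.71 ± 0.11 (SE, adjusted p = 1.07e-05). Py230 tumors were above their glands by 0.45 ± 0.11 (adjusted p = 0.00157), and 4T1 tumors below theirs by 0.51 ± 0.11 (adjusted p = 0.000389). The second 4T1 library, with the highest Eda2r score of the 3, also had the lowest mean of the 12 epithelial genes, 0.68 against 1.20 and 1.32 in the other libraries of its group. Eda2r and Ccng1 rose and fell together over the 36 libraries (r = 0.655, and 0.723 with group means removed).

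Read against the glands, the tumors of the models followed different courses. In 4T1 tumors 2 members were called at 1 w p.i., Bax and Mdm2, both higher (16.6% of all genes called), 0 at 3 w p.i. (3.25%) and 5 at 6 w p.i. (60.1%), of which Bax and Mdm2 were higher and Ccng1, Eda2r and Cdkn2b lower. Of the members at 3 w p.i. 2, Cdkn1a and Mdm2, had an unadjusted p of limma under 0.05. In Py230 tumors 0 members were called at 1 w p.i., where 0.00924% of all genes were called, and 2 members, Trp53 and Bbc3, had an unadjusted p of limma under 0.05. Called at 3 w p.i. were 2, Cdkn2a and Cdkn1a (19.7%), and at 6 w p.i. 7, all higher (47.6%), namely Cdkn2a, Cdkn1a, Cdkn2b, Eda2r, Bax, Trp53 and Mdm2. The count was also 7 in each of 6 fits that left out a library.

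Over time, 0 members were called in 4T1 tumors from 1 to 3 w p.i. (0.628% of all genes called), with Cdkn2b and Bax at an unadjusted p of limma under 0.05, and 6 from 3 to 6 w p.i., all lower (53%). These were Ccng1, Cdkn1a, Cdkn2a, Cdkn2b, Eda2r and Sesn2, and without the second 4T1 library at 3 w p.i. 3 were called. In Py230 tumors 2 members rose from 1 to 3 w p.i. (20%), Cdkn2a and Cdkn2b, and 4 rose from 3 to 6 w p.i. (6.03%), Cdkn1a, Cdkn2a, Cdkn2b and Mdm2. The 4 calls were all lost without the third library at 3 w p.i., or without the first or the second library at 6 w p.i. The change of the difference between the models was called for 2 members from 1 to 3 w p.i. (15.3%), Cdkn2a and Bax, and for 5 from 3 to 6 w p.i. (26.7%), Cdkn1a, Cdkn2a, Cdkn2b, Eda2r and Sesn2. All of these changes were toward lower values in 4T1 tumors.

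A list of 32 further p53 targets was divided between the models. Of these, 14 were lower and 8 higher in 4T1 tumors at 6 w p.i. (40.8% of all genes called), with a median of -0.16 beside 0.04 for all genes. Earlier, at 3 w p.i., 11 were lower and 4 higher (30.3%), and at 1 w p.i. 1 was lower and 1 higher (19.4%). Zfp365, which acts in genome stability, had scores of -0.91, -0.89 and -0.92 in 4T1 and 0.48, 0.46 and 0.37 in Py230 tumors at 6 w p.i., a difference of -1.34 ± 0.09 (adjusted p = 5.65e-12). The polo-like kinase gene Plk2 was lower by 0.79 ± 0.06 (adjusted p = 2.18e-11). Among tumors of 3 w p.i. Psrc1, a mitotic spindle gene, was lower by 1.09 ± 0.16 (adjusted p = 1e-05) and Zmat3, an RNA-binding protein gene, by 0.26 ± 0.04 (adjusted p = 0.000102). At 1 w p.i. Zfp365 was lower by 0.35 ± 0.09 (adjusted p = 0.00918), and Dcxr, an enzyme of carbonyl metabolism, was higher by 0.20 ± 0.06 (adjusted p = 0.0275). The growth arrest and DNA damage gene Gadd45a, singled out after its values were seen, was the main exception, with a difference of 1.17 ± 0.09 at 6 w p.i. (adjusted p = 5.43e-11).

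In Py230 tumors 16 of the 32 targets were higher and 6 lower than in C57BL/6 glands at 6 w p.i., where 47.6% of all genes were called. In 4T1 tumors 11 were higher and 11 lower than in BALB/c glands, where 60.1% of all genes were called. The mean score of the list was 0.62 in Py230 tumors at 6 w p.i., with libraries from 0.60 to 0.64, and between 0.37 and 0.47 in the other 11 groups. From 3 to 6 w p.i. 9 targets rose and 0 fell in Py230 tumors, where 6.03% of all genes were called.

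**Figure D5:**
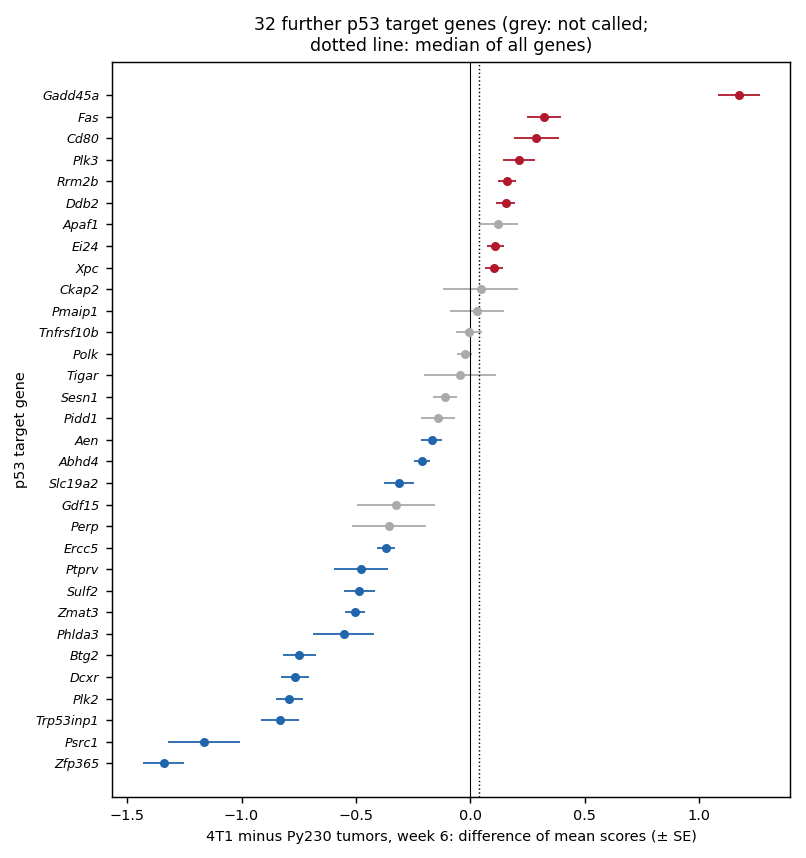
Difference of mean scores between 4T1 and Py230 tumors at 6 w p.i. (x axis, score units, ± SE) for 32 further p53 target genes (y axis), with called genes in red (higher in 4T1) and blue (lower) and others in grey. The values run from -1.34 for Zfp365 to 1.17 for Gadd45a, and the dotted line marks the median of all genes at 0.04.

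Of 16 measured regulators and relatives of p53, 4 were higher and 3 lower in 4T1 tumors at 6 w p.i. (40.8% of all genes called). The p53 relative Trp63, which also marks basal cells of the mammary epithelium, had scores of -0.13, -0.66 and 0.00 in 4T1 and 1.08, 1.21 and 0.89 in Py230 tumors, a difference of -1.32 ± 0.12 (adjusted p = 1.31e-09). The acetyltransferase gene Kat5 was higher by 0.16 ± 0.03 (adjusted p = 9.01e-05). The checkpoint kinase gene Chek2 was lower in 4T1 tumors at 3 w p.i. by 0.51 ± 0.08 (adjusted p = 3.57e-05). Trp53bp1, which encodes a DNA repair factor that binds p53, was lower at 1 w p.i. and at 3 w p.i., by 0.13 and 0.20 (adjusted p = 0.0171 and 0.000173), and the p53 kinase gene Hipk2 was lower at 1 w p.i. by 0.30 ± 0.08 (adjusted p = 0.00774). Of the 12 epithelial genes, 6 were lower and 0 higher in 4T1 tumors at 6 w p.i., and their part in the differences of the members was not tested.

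A list of 18 genes held other inhibitors of the cyclin dependent kinases, D and E cyclins, the kinases and the Rb and E2F proteins. Of these, 4 were higher and 1 lower in 4T1 tumors at 6 w p.i., beside 40.8% of all genes called. Cdk6, a kinase inhibited by the Ink4 proteins, was higher by 0.81 ± 0.08 (adjusted p = 4.28e-09), with scores of 1.24, 1.41 and 1.39 against 0.58, 0.52 and 0.50. Cdkn1b, which encodes the inhibitor p27, was higher by 0.21 ± 0.04 (adjusted p = 6.94e-05). At 3 w p.i. the cyclin genes Ccnd1 and Ccne2 were lower in 4T1 tumors by 0.59 ± 0.10 and 0.48 ± 0.09 (adjusted p = 0.000112 and 0.000205). Ccnd1 was also lower in BALB/c than in C57BL/6 glands, by 0.24 (adjusted p = 0.00673). Of the 18 proliferation genes 3 were higher in 4T1 tumors at 1 w p.i., beside 11% of all genes, and 13 were lower at 3 w p.i., beside 18.5%. An unadjusted p of limma under 0.05 was reached by 16 of the 18 at 1 w p.i. and by 17 at 3 w p.i. Their mean score at 1 w p.i. was 0.60 in 4T1 tumors (libraries from 0.34 to 0.75) and 0.20 in Py230 tumors (0.16 to 0.22). At 6 w p.i. all 18 were higher than in the glands in both models, beside 38.6% of all genes in 4T1 and 28.8% in Py230 tumors. The mean score of the 18 genes at 3 w p.i. was 0.11 in 4T1 tumors, with libraries from -0.23 to 0.49. In Py230 tumors it was 0.60, with libraries from 0.29 to 0.86.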

How the data were processed

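RNA-seq libraries of 4T1 and Py230 primary tumors and of Matrigel glands were grouped by the labels (36 libraries, 12 groups of 3). The paper calls the tumor samples of a group independent, the labels number them, and for the glands no source used here states separate animals. The p-values thus measure the spread between libraries within groups, pooled over the 12 groups for each gene. Per the paper's methods, the authors mapped stranded 75-base paired reads with STAR to mm10, counted them with summariseOverlaps and normalized them with DESeq2. Versions and gene annotation are not given in the sources used here. The deposited unit is a score, since every library is centred on 0 with unit spread across 21650 genes; no source used here explains this standardization. The planned test was kept because it fits scores. Of the authors' comparison tables only the symbols and the mean normalized counts (other deposited values, used for expression level) were taken, and their fold changes and p-values were not used. No column of the expression table was left unmapped. Symbols of 5384 genes came from the mouse reference (GENCODE M21, mm10).

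The members and the gene lists were chosen with earlier results of these data known. Scores were fitted in R 4.3.3 with limma 3.58.1 as 12 group means over all libraries with empirical Bayes moderation (trend, robust). Benjamini-Hochberg adjustment covered the whole table, and genes with an adjusted p under 0.05 were called. All 10 members are named, and of each pathway list the 2 genes with the smallest p at each time point. A gene that this rule selects is not reported here. For Trp53, Cdkn1a and Cdkn2a the 3 most correlated genes with a mean count of at least 100 are named. Cop1, Dmrta1 and Shbg of the lists were not matched. On simulated scores for 4T1 against Py230 tumors at 3 w p.i., run on 21650 genes, 84 of 100 genes changed by 0.5 and 96 of 100 genes changed by 1 were recovered, with 6 false calls. Alternatives were fits with the compared time points only, quantile normalization, a robust line, a mean count of at least 10, no trend, the replicate block and each library left out in turn. Cyclic loess was added after seeing the data.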

Additional observations from a re-analysis of the deposited data

Results flagged for a closer look

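The following differences between the models were themselves tested, either with the Matrigel strain difference subtracted or as a change between time points, by limma with adjustment over all genes. At 3 w p.i. the effect of the tumor on Cdkn2a, relative to the glands of its strain, was lower in 4T1 than in Py230 tumors by 0.70 (-0.70 ± 0.18, SE, adjusted p = 0.0145). It was lost without the first Py230 library at 3 w p.i., when 0 members were called.

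At 6 w p.i. the effect of the tumor was lower in 4T1 than in Py230 tumors for 6 genes. The values were -1.55 ± 0.18 for Cdkn2a (adjusted p = 2.07e-07), -0.96 ± 0.16 for Eda2r (adjusted p = 4.72e-05) and -0.85 ± 0.13 for Cdkn2b (adjusted p = 1.39e-05). They were -0.70 ± 0.09 for Cdkn1a (adjusted p = 2.59e-06), -0.66 ± 0.18 for Ccng1 (adjusted p = 0.00873) and -0.33 ± 0.08 for Trp53 (adjusted p = 0.00362). Eda2r, Cdkn2b and Ccng1 were below the BALB/c glands in 4T1 tumors, while Eda2r and Cdkn2b were above the C57BL/6 glands in Py230 tumors.

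The difference between the models changed from 1 to 3 w p.i. for Cdkn2a by -0.90 ± 0.18 (adjusted p = 0.002) and for Bax by -0.27 ± 0.09 (adjusted p = 0.0366). From 3 to 6 w p.i. it changed for Cdkn2b by -0.75 ± 0.13 (adjusted p = 9.31e-05), for Cdkn2a by -0.75 ± 0.18 (adjusted p = 0.00241) and for Eda2r by -0.48 ± 0.16 (adjusted p = 0.0257). In the same interval it changed for Cdkn1a by -0.44 ± 0.09 (adjusted p = 0.00093) and for Sesn2 by -0.35 ± 0.08 (adjusted p = 0.00131). In each of these 7 cases the change was toward lower values on the 4T1 side.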

How the results depend on the processing

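Of 390 single values of the members under all alternatives, 357 kept their direction and their side of the threshold, 7 fell short of it, 5 newly passed it and 21 turned sign, of which none was past the threshold in the reported fit. At 6 w p.i. 7 members were called between the models under each of 7 alternatives and 6 to 7 when a library was left out.

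Of 54 pairs of libraries with a shared replicate number, 20 had a correlation of deviations over 0.1, in a range of -0.602 to 0.824. Pairs with unlike numbers were not compared, so these values cannot tell whether the numbers pair the libraries. With the replicate block 3 instead of 2 members were called in Py230 tumors against glands at 3 w p.i. and 5 instead of 2 further p53 targets between the models at 1 w p.i., and the other counts stayed within 1.5 times.

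With only the compared time points in the fit, the counts of members fell to 0 between the models at 1 w p.i., to 0 at 3 w p.i. with the strain difference subtracted, to 1 in Py230 tumors from 3 to 6 w p.i. and to 1 for the change from 1 to 3 w p.i. The counts of further p53 targets fell to 0 at 1 w p.i. and to 8 at 3 w p.i. At 3 w p.i. 2 members were called between the models with quantile normalization, the robust line and cyclic loess, Mdm2 being added. With the same scalings 0 members were called between the strains. The robust line left 1 member for the change from 1 to 3 w p.i. The causes were not tested.

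Values that turned sign were those of Cdkn2b at 1 w p.i. (0.0131 with quantile normalization, 0.00292 with the robust line and 0.00517 with cyclic loess), Ccng1 at 3 w p.i. (-0.0151 with quantile normalization and -0.000932 with cyclic loess) and Bbc3 at 3 w p.i. (0.00707 with the robust line and 0.0117 with cyclic loess). With single libraries left out, uncalled differences that turned sign ranged from -0.0348 to 0.0463 for Cdkn2b and from -0.0344 to 0.0850 for Ccng1 at 1 w p.i. The ranges at 3 w p.i. were -0.0287 to 0.0463 for Cdkn1a, -0.184 to 0.0219 for Cdkn2b, -0.0667 to 0.0692 for Ccng1 and -0.0698 to 0.0149 for Bbc3, and that of Mdm2 at 6 w p.i. was -0.0124 to 0.0545.

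With single libraries left out, the counts of members between the models ranged from 0 to 1 at 1 w p.i. (0 without the first or the third 4T1 or the first Py230 library) and from 1 to 2 at 3 w p.i. (2 without the first 4T1 or the third Py230 library). Further p53 targets ranged from 0 to 9 at 1 w p.i. (1, 9 and 0 without the first, the second and the third 4T1 library), from 6 to 15 at 3 w p.i. (9 without the second 4T1 and 6 without the first Py230 library) and from 19 to 21 at 6 w p.i. With the strain difference subtracted, members ranged from 0 to 1 at 1 w p.i. (1 without the second 4T1 library), from 0 to 1 at 3 w p.i. and from 6 to 6 at 6 w p.i. Against glands, 4T1 tumors ranged from 0 to 3 at 1 w p.i. (1 and 0 without the first and the third 4T1 library), from 0 to 1 at 3 w p.i. (1 without the third 4T1 library) and from 4 to 5 at 6 w p.i. Py230 tumors ranged from 0 to 0, from 2 to 4 (4 without the third Py230 library) and from 7 to 7. Over time, 4T1 tumors ranged from 0 to 2 between 1 and 3 w p.i. (2 without the first library of 3 w p.i.) and from 3 to 6 between 3 and 6 w p.i., and Py230 tumors from 1 to 4 (1 and 4 without the first and the third library of 3 w p.i.) and from 0 to 5. The change of the difference ranged from 1 to 3 and from 4 to 5. The strain count ranged from 0 to 1, being 0 without 11 of the 18 glands. The share of all genes called in each fit is not given beside these counts or beside those of the other alternatives. The counts therefore cannot tell a change in these genes from a shift of the threshold over all genes.

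Higher genes made up 39.1% of all called genes between the models at 3 w p.i. and 50.8% with the robust line.

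No depth is known, so none of these values has a counting error, and 3 libraries per group limit the precision.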

Other observations

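Among the members themselves, the closest pairs over the 36 libraries were Trp53 and Bax (Pearson r = 0.786), Trp53 and Cdkn2a (r = 0.757) and the adjacent genes Cdkn2a and Cdkn2b (r = 0.722). After the group means were removed, Trp53 and Bax kept an r of 0.682, while Trp53 and Cdkn2a had 0.306 and Cdkn2a and Cdkn2b had 0.220. Bax and Bbc3, which both encode death proteins, had an r of 0.319 over all libraries and 0.741 with the group means removed. Ccng1 ran against Bax (r = -0.510, and -0.700 with the group means removed). These values are descriptions, since libraries of a group share their tissue and the scores of a library share a standardization.

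Genes of other cell types were also compared between the models in the same libraries, and their part in the differences of the members was not tested. At 6 w p.i. 5 of 6 genes of milk-producing epithelium were lower in 4T1 than in Py230 tumors, with a mean score of -0.85 (libraries from -0.88 to -0.84) against 0.18 (0.05 to 0.30). At that time 4 of 14 leukocyte genes were higher and 1 lower in 4T1 tumors. Of all genes, 24.1% were higher and 16.7% lower in this comparison. At 3 w p.i. 7 of 14 leukocyte genes and 3 of 8 fibroblast genes were higher in 4T1 tumors, beside 11.9% of all genes. All 10 adipocyte genes were lower than in the glands in both models at 6 w p.i., beside 21.5% of all genes in 4T1 and 18.7% in Py230 tumors.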
